A study of Schizosaccharomyces pombe with 4 samples.

Results

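The fission yeast (Schizosaccharomyces pombe) strains IRD1 and IRD3 were compared directly for trimethylation of histone H3 at lysine 9 (H3K9me3). They were 2 of the 4 strains in the series, and the wild-type array was not used as a baseline. Each strain was measured on 1 array, so every difference below lacks a replicate check and no p-value can be given. The arrays were chosen by their titles, because the genotype and antibody fields of both strains are exchanged in the labels. The labels give the strain names and the tag REIID, which both titles share, and do not spell out the alleles behind them. Cells came from asynchronous cultures in logarithmic growth and were fixed before chromatin was sheared and precipitated. Precipitated DNA carried the red dye and DNA of the whole-cell extract (the input) the green dye on the same array. A value is the log2 ratio of precipitated over input DNA, with the median genomic probe of each array at 0, and a difference is IRD1 minus IRD3. Of 41551 genomic probes per array, spaced at 300 bp, 38502 gave a usable ratio in IRD1 and 39768 in IRD3, and 37229 did so on both. Positions are those in the probe names. The last probe of chromosome 3 (2453700) lies beyond the end of that chromosome in the reference assembly at hand (2452883), so the builds differ. Places are therefore named by position and not by gene, and no probe sequences were used. On chromosomes 1 and 2 the last probes (5574600 and 4510500) lie short of the reference ends (5579133 and 4539804). A right end below means the last probe, so distances from it need not be distances from the telomere.

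In fission yeast a single methyltransferase, Clr4, places H3K9 methylation, and chromodomain proteins of the HP1 family such as Swi6 bind it. The mark is laid down at nucleating sequences, which include repeats of the outer centromere, a related element in the silent mating-type region and sequences near the telomeres. From there it can spread along neighbouring chromatin, and how far it spreads differs with the boundary elements and silencing factors present. Subtelomeres lack sharp boundaries on the side of the chromosome arm, so the inner margin of a subtelomeric domain is a gradient.

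Both arrays were on 1 slide and in 1 scan. Feature Extraction marked 7.33% of genomic spots as outliers in IRD1 and 4.28% in IRD3, and these were left out. The spread between neighbouring probes on the chromosome arms had an SD of 0.36 in IRD1 and 0.34 in IRD3. The difference also varied with the place of a spot on the glass. Across 10 bands of array rows, its median ranged from -0.18 (rows 320 to 372) to 0.24 (rows 1 to 53). Probes of a chromosomal neighbourhood were in many cases scattered over the rows, but some windows lay within few rows.

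Genome-wide, the profiles of IRD1 and IRD3 were close. The median difference over 37229 probes was -0.03, the quartiles were -0.17 and 0.13, and the 1st and 99th percentiles were -0.56 and 0.67. Across probes, which are not independent replicates, Pearson's r was 0.971 over all probes and 0.947 over the chromosome arms. Chromosomes 1, 2 and 3 had median differences of -0.03, -0.03 and -0.02. In bins of 50 kb on the arms, 232 of 245 medians lay within 0.1 of 0, and the lowest was -0.40 in the bin that starts at 5500000 near the right end of chromosome 1. Differences of adjacent probes on the arms correlated at 0.27, 0.24 and 0.24 on chromosomes 1, 2 and 3. At a distance of 3 kb these values were 0.07, 0.03 and 0.03.

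Windows of 1.5 kb with at least 3 probes on both arrays were then counted where the median difference was at least 1, which is 2-fold. Of 8040 windows, 9 were lower in IRD1 (0.112%) and 0 were higher (0%). All 9 lay outside the centromeres and the mating-type region. Within 51.6 kb of the right end of chromosome 1 there were 5, and 2 lay near the right end of chromosome 2. The others, on the left sides of chromosomes 1 and 2, are described with their surroundings. The 9 windows had median ratios between -0.32 and 4.84 in IRD1 and between 0.89 and 5.72 in IRD3. Their ratios were 2.04-fold to 2.44-fold lower in IRD1. In 7 of the 9 windows both strains were at or above a ratio of 1, and the ratio was lower in IRD1. In these windows the precipitated signal was lower in IRD1 by medians of -0.82 to -1.41, and the input differed by -0.40 to 0.38. The probes of each window were spread over at least 146 array rows. To be counted as crossing a ratio of 1 in 1 strain alone, a window also had to stay below 1 in the other strain and reach 1 in its own. That was the case in 1 window of lower IRD1 signal (0.0124%) and 0 of higher (0%). Without the minimum difference, the ratio was at least 1 in IRD1 alone in 43 of the 8040 windows and in IRD3 alone in 259. In all, 562 windows reached 1 in IRD1 and 778 in IRD3. These counts include windows with small differences, and probes with a mean ratio of 1 to 2 differed by a median of -0.12 genome-wide. With loess normalization within each array, 0 windows were lower and 2 were higher in IRD1, and the same 9 windows ranged from -0.98 to 0.48.

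**Figure D1:**
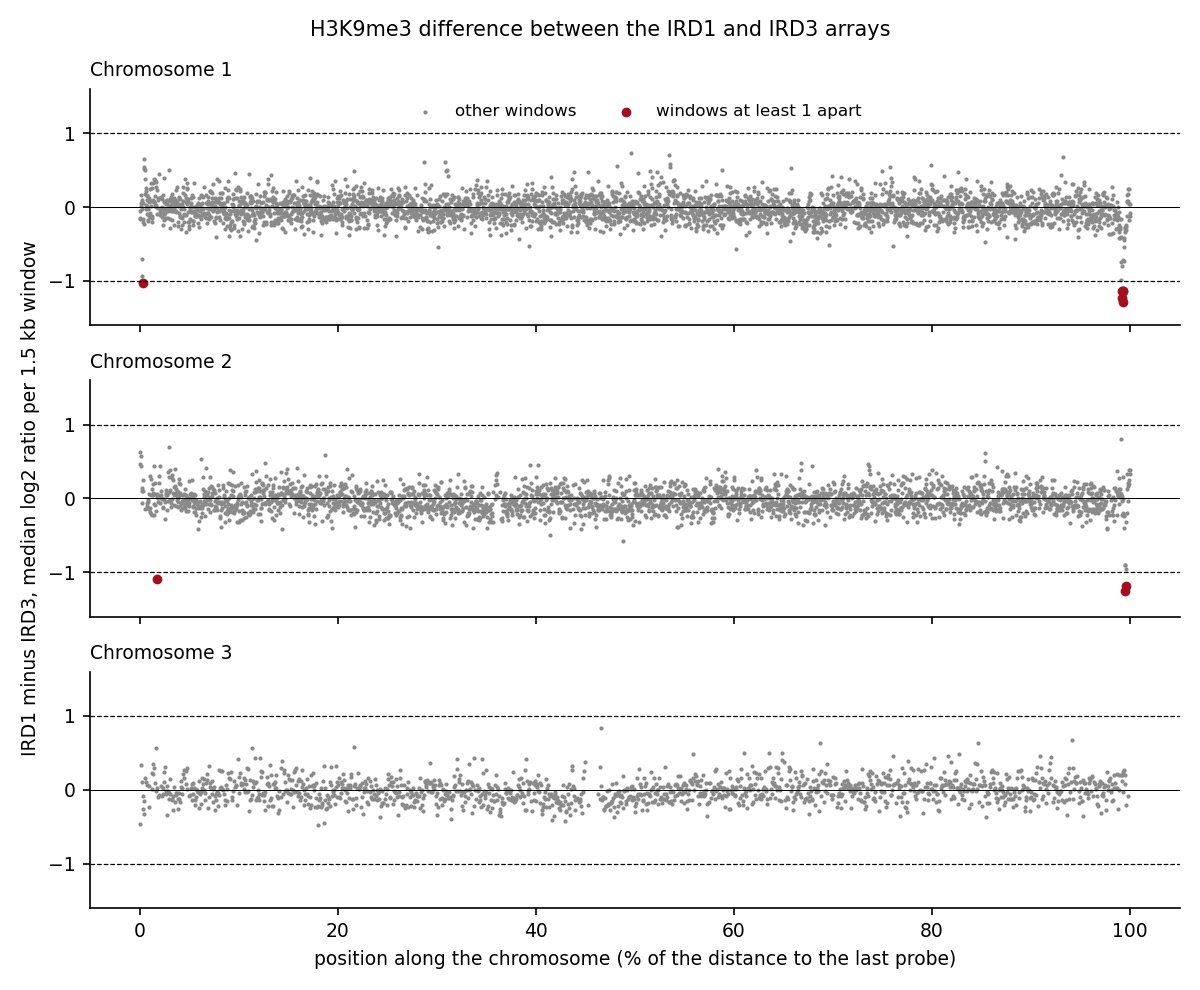
Median difference, IRD1 minus IRD3, of each 1.5 kb window (vertical axis, log2 ratio) along chromosomes 1, 2 and 3 (horizontal axis, % of the distance to the last probe). Each point is 1 window from 1 array per strain, dashed lines mark a difference of 1, and the 9 red windows at least 1 apart are all lower in IRD1 and lie near chromosome ends.

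The threshold separated windows that lay close together. Just inside it, the window at 15000 on chromosome 1 differed by -1.03 and that at 76500 on chromosome 2 by -1.09. Just outside it, between 0.8 and 1, there were 6 windows with a lower and 2 with a higher ratio in IRD1. Of these 2, the window at 4468500 on chromosome 2 (0.81) had its 3 probes in array rows 6 to 33. These rows lie in the band with the highest median difference, and the input of the window differed by -0.59. The largest positive window difference was 0.84, at 1141500 on chromosome 3. Within 0.5 of 0 lay 7974 windows, or 99.2%.

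Higher and lower single probes lay in different settings. Of 37229 probes, 54 (0.145%) were at least 1 lower in IRD1 and 34 (0.0913%) at least 1 higher. Of the 54 lower probes, 43 had an adjacent probe that was also at least 1 lower, against 2 of the 34 higher probes in their own direction. The right end of chromosome 1 held 29 of the 54, and that of chromosome 2 held 13. The higher probes sat mostly at low ratios, with the mean of both arrays below 0 in 26 of 34. Such means were also common among all 37229 probes, with 15749 between -1 and 0, 2252 between -2 and -1 and 52 under -2. The first or last 54 rows of the array held 24 of the 34 higher probes and 5 of the 54 lower ones. For comparison, the first band of array rows (1 to 53) held 3888 of the 37229 probes and the last band held 3494. With block medians over the array removed, 16 probes were higher and 50 lower.

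The right end of chromosome 1 carried the longest stretch of lower signal. To find such stretches, 5-probe running medians of the difference at least 0.5 in size over at least 10 probes were joined into runs, a rule chosen after the data were seen, and 5 runs were found. This rule selects on the size and direction of the difference. The median difference and the counts of lower or higher probes within any run therefore follow largely from that choice. This also holds for the runs at the other chromosome ends. The longest ran from 5523000 to 5539800, which is 51.6 to 34.8 kb from the last probe of chromosome 1. Over 56 probes its median ratio was 2.88 in IRD1 and 3.93 in IRD3, a difference of -1.0 with quartiles of -1.14 and -0.73, and 55 of the 56 probes were lower in IRD1. With loess within each array the difference was -0.60. The input differed by 0.07 over these probes, and the precipitated signal by -0.92. At the inner margin, the window at 5526000 had 1.87 in IRD1 and 3.04 in IRD3, a difference of -1.23. The next window, at 5527500, had 1.82 in IRD1 and 3.20 in IRD3. Farther out, the windows at 5530500 and 5532000 had 2.64 and 3.09 in IRD1, against 3.76 and 4.26 in IRD3. The window at 5533500 differed most of all 8040, with 3.54 in IRD1 and 4.83 in IRD3, a difference of -1.29. Here the input was 0.38 higher in IRD1, and the precipitated signal was -0.87 apart. Across these windows the ratio was higher at 5533500 than at 5526000 in both strains, and IRD1 lay below IRD3 in each.

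On this slope the lower ratio in IRD1 went with a shorter reach. The reach is read from the same ratios, so it is not a separate observation. Counted inward from the last probe, the unbroken stretch with a 5-probe running median of at least 3 reached 42.0 kb in IRD1 and 46.5 kb in IRD3. With the threshold lowered to 2, the reach was 46.2 kb in IRD1 and 49.5 kb in IRD3. With a threshold of 1, the reach was 49.2 kb in IRD1 and 51.0 kb in IRD3. Over the 5 kb inward of the run, both strains were near the genome median, with 0.04 in IRD1 and 0.21 in IRD3, and all 15 probes there were lower in IRD1. Outward of the run the gap narrowed. Between the run and the outer 20 kb, the median difference was -0.28 over 49 probes, with 4.59 in IRD1 and 4.93 in IRD3. In the outer 20 kb it was 0.08 over 59 probes, and 37 of the 59 were higher in IRD1. One probe inside the run, at 5537100, had a low ratio in both strains, 0.17 in IRD1 and 0.71 in IRD3, although its neighbours were near 4. Its name carries the suffix m, which the files do not explain.

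**Figure D2:**
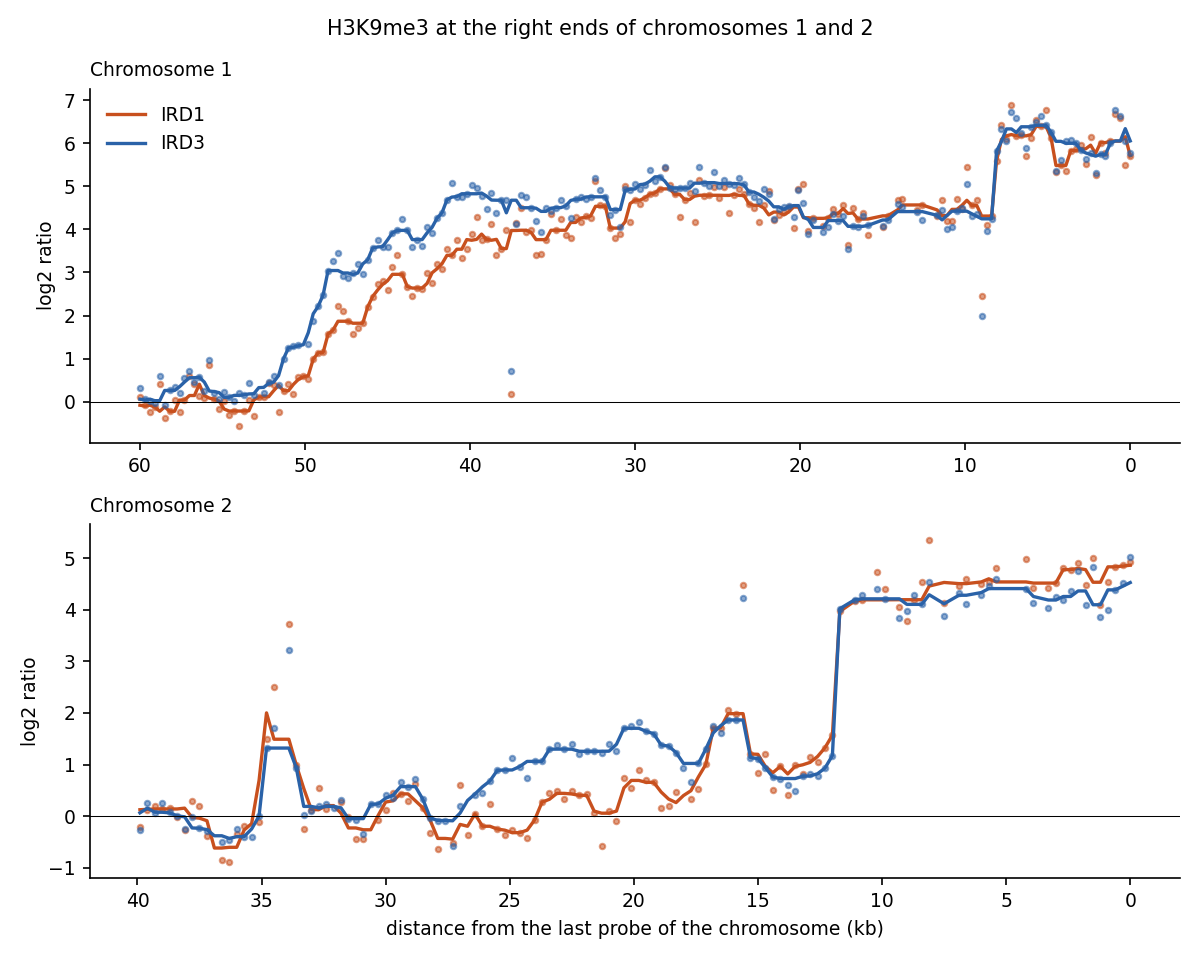
Log2 ratio of precipitated over input DNA (vertical axis) at the right ends of chromosomes 1 and 2 against the distance from the last probe (horizontal axis, kb, last probe at the right). Points are single probes, lines are 5-probe running medians of IRD1 (orange) and IRD3 (blue), and IRD1 lies below IRD3 from 51.6 to 34.8 kb on chromosome 1 and from 26.1 to 18.0 kb on chromosome 2.

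The right end of chromosome 2 held a stretch with a higher ratio in IRD3, whereas IRD1 was near the genome median. Ratios at the level of IRD3 here also occurred elsewhere. Genome-wide, 3774 of 37229 probes had a mean ratio of 1 to 2, and the 99th percentile of the chromosome arms in IRD3 was 1.81. Whether the stretch carries H3K9me3 in IRD3 was not tested. The run extended from 4484400 to 4492500, which is 26.1 to 18.0 kb from the last probe. Over 27 probes its median ratio was 0.23 in IRD1 and 1.26 in IRD3, a difference of -0.97, and all 27 probes were lower in IRD1. The window at 4485000 had -0.32 in IRD1 and 0.89 in IRD3, so both were under 1 there. The window at 4489500 had 0.55 in IRD1 and 1.70 in IRD3, a 2.28-fold lower ratio in IRD1. It is the window that met the rule for crossing a ratio of 1 in IRD3 alone. The input differed by 0.12 over the run. None of the 27 probes carries a suffix f or m. The probe with the largest difference, at 4489200, had -0.58 in IRD1 and 1.23 in IRD3.

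On both sides of this run the strains were closer. Over the 5 kb inward of it the ratio was 0.11 in IRD1 and 0.33 in IRD3. Between the run and the terminal domain the ratio was 1.10 in IRD1 and 0.98 in IRD3, a difference of 0.11 over 20 probes. The terminal domain itself, the outer 11.7 kb with running medians of at least 3, was 4.52 in IRD1 and 4.27 in IRD3. It was higher in IRD1 by a median of 0.24, and 24 of its 30 probes were higher. All 30 carry a suffix f or m, whereas the probes of the inner run carry none, so the inner and outer stretches of this end were read by different kinds of probe. The inward reach of the terminal domain was 11.7 kb in both strains at thresholds of 3 and 2, and the inner stretch is separate from it. The quartiles of the whole outer 40 kb were 0.11 and 3.99 in IRD1 and 0.34 and 3.86 in IRD3, so its median difference of -0.05 does not describe either stretch.

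The left end of chromosome 1 differed in both directions over short distances. From 12600 to 15600 the ratio was 4.91 in IRD1 and 5.85 in IRD3, a difference of -0.82, and all 11 probes were lower in IRD1. The window at 15000 had 4.84 in IRD1 and 5.72 in IRD3. The input was also lower here, at -0.53 in IRD1 and -0.06 in IRD3, and the precipitated signal differed by -1.41. This was the 1 place among the 9 windows where the input was lower in IRD1 by as much as 0.40. The direction of this difference depended on the normalization, since loess within each array gave 0.63 for the stretch and 0.48 for the window. From 24000 to 27600 IRD1 was higher, with 4.97 in IRD1 and 4.43 in IRD3, a difference of 0.56 on all 13 probes, each of which carries a suffix f or m. The outer 12.3 kb had 6.13 in IRD1 and 6.18 in IRD3. Both strains kept an unbroken stretch above 3 to 36.3 kb from the start.

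The left end of chromosome 2 was higher in IRD1 near the chromosome tip. Over the outer 5 kb the ratio was 5.02 in IRD1 and 4.50 in IRD3, a difference of 0.57, and all 15 probes were higher in IRD1. All 15 carry a suffix f or m. Over the rest of the domain, to 15600, the ratio was 4.33 in IRD1 and 4.22 in IRD3, and 17 of 23 probes were higher in IRD1. The enriched stretch reached 15.3 kb in both strains at thresholds of 2 and 3.

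**Figure D3:**
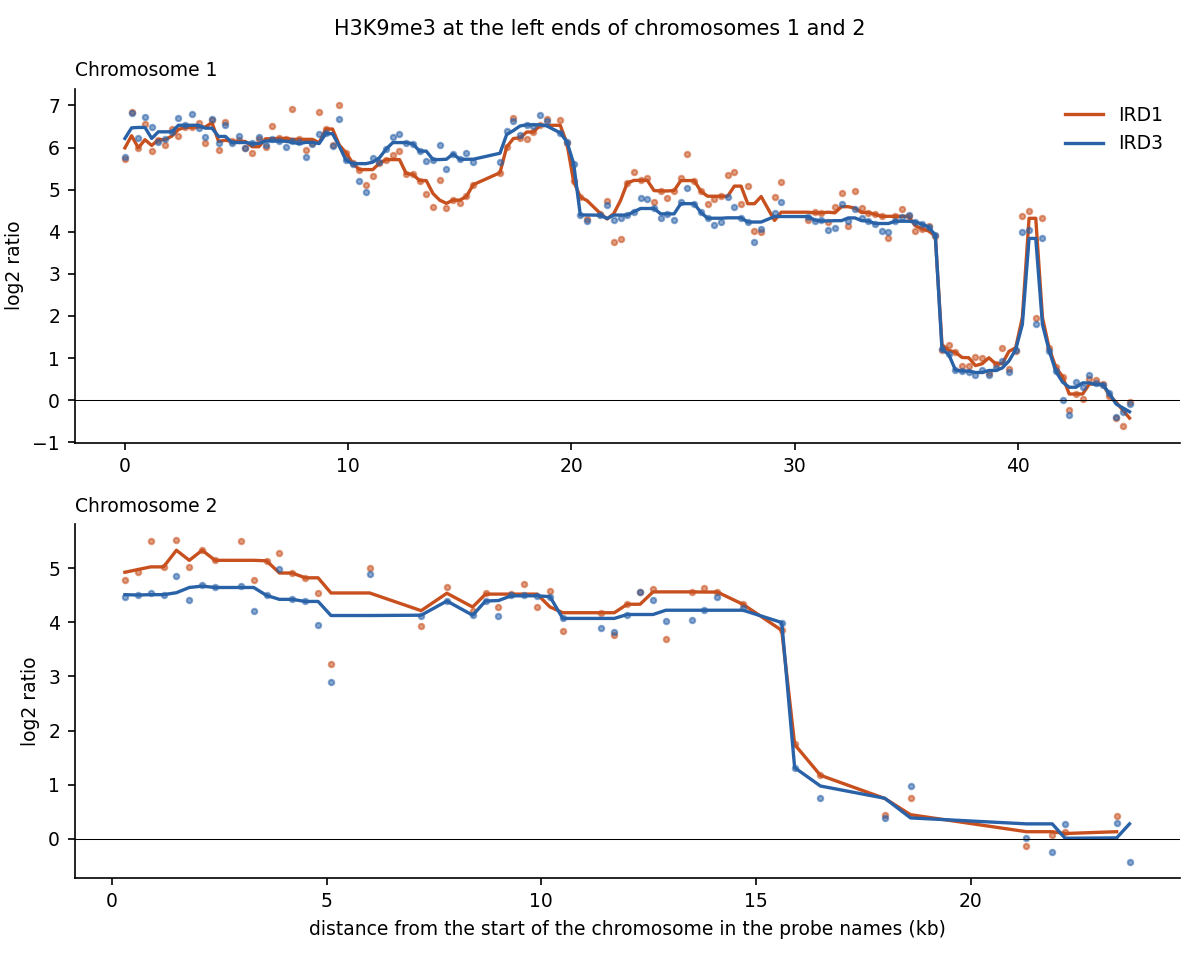
Log2 ratio of precipitated over input DNA (vertical axis) at the left ends of chromosomes 1 and 2 against the distance from the start in the probe names (horizontal axis, kb). Points are single probes, lines are 5-probe running medians of IRD1 (orange) and IRD3 (blue), and IRD1 is lower near 12.6 to 15.6 kb and higher near 24.0 to 27.6 kb on chromosome 1, and higher in the outer 5 kb of chromosome 2.

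A short patch inside the left arm of chromosome 2 was the 9th window. At 76500 the window had 2.27 in IRD1 and 3.49 in IRD3, a difference of -1.09. The patch itself was 4 probes, from 76200 to 77100, with a median of 2.55 in IRD1 and 3.66 in IRD3, and all 4 were lower in IRD1. The difference was -1.15, and it was -0.51 with loess within each array. Each of the 4 carries the suffix f or m. In the 1.5 kb after it, the ratio was -0.64 in IRD1 and -0.86 in IRD3, near or below the genome median in both strains.

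The ends of chromosome 3 had close ratios in IRD1 and IRD3. The outer 20 kb on the left had 2.40 in both strains, and its difference had quartiles of -0.20 and 0.13, although loess within each array gave 0.61. The right end had 1.66 in IRD1 and 1.59 in IRD3. Its quartiles were -0.78 and 2.31 in IRD1 and -0.86 and 2.24 in IRD3, so these medians cover both enriched and low probes. Input was high there, at 2.31 in IRD1 and 2.45 in IRD3 on the left, so these probes had more input signal than the median probe in both strains. The contigs named pNSU in the probe names were lower in IRD1, with 4.54 in IRD1 and 4.84 in IRD3, a median difference of -0.19, and 98 of 127 probes were lower.

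Centromeric H3K9me3 was high in both strains. Centromeres were the largest internal clusters of runs with a mean ratio of at least 3. Their 199 probes had a median of 6.27 in IRD1 and 6.31 in IRD3, and the difference was -0.05 with quartiles of -0.18 and 0.11, against 0.31 with loess within each array. Centromeres 1, 2 and 3 had ratios of 6.22, 6.22 and 6.33 in IRD1 and 6.33, 6.26 and 6.36 in IRD3. The stretches between the runs inside a centromere, among which the central core lies, were low in both strains. They were pooled within each centromere, so the values are not those of the core alone. At centromere 2 they had -1.69 in IRD1 and -1.93 in IRD3, and at centromere 3 they had -1.10 in IRD1 and -0.99 in IRD3.

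The right margin of centromere 3 was higher in IRD1. In the last 2 kb of the run, from 1140900 to 1142700, the ratio was 5.05 in IRD1 and 4.58 in IRD3, a difference of 0.56 on 7 of 7 probes higher in IRD1. Without probes of suffix f or m it was 0.84. At 1142400 it was 4.50 in IRD1 and 3.35 in IRD3, and at 1142700 it was 3.96 in IRD1 and 3.11 in IRD3. The next probe outward, at 1143000, had 1.64 in IRD1 and 1.41 in IRD3. Over the 3 kb beyond the run the difference was -0.08, so the higher ratio in IRD1 stopped at the edge of the run. The remainder of this run had 5.99 in IRD1 and 6.21 in IRD3, but the median difference per probe was -0.04, with 7 of 16 probes higher in IRD1.

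**Figure D4:**
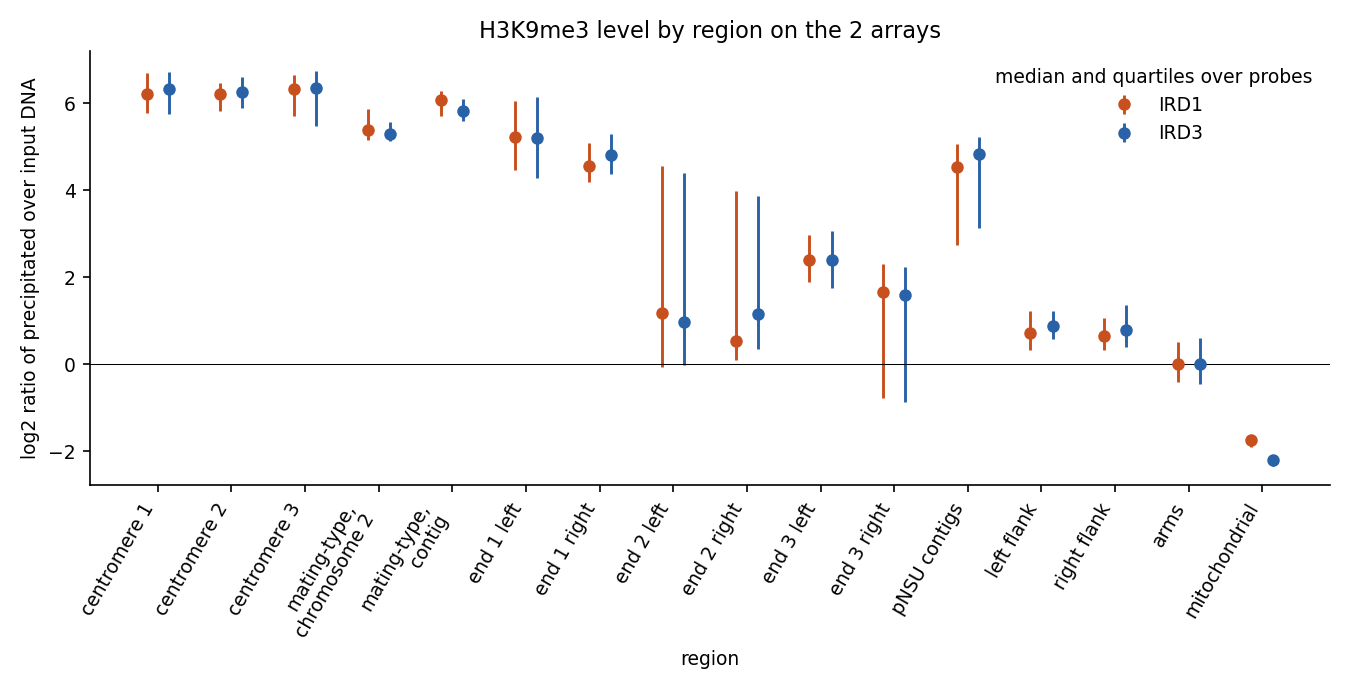
Median log2 ratio of precipitated over input DNA (vertical axis) by region (horizontal axis), IRD1 in orange on the left and IRD3 in blue on the right of each pair, with bars from the first to the third quartile over probes of 1 array. Centromeres sit at 6.22 to 6.36 in both strains, while mitochondrial probes are at -1.74 in IRD1 and -2.20 in IRD3.

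The mating-type region, where silent copies of the mating-type genes are stored, was slightly higher in IRD1. Its run on chromosome 2, from 2131200 to 2138400, had 5.40 in IRD1 and 5.30 in IRD3, and 14 of its 21 measured probes were higher in IRD1. The difference was 0.25 with a range of -0.17 to 0.50 over probes, and it lay between 0.15 and 0.43 under the alternatives. In the last 1.5 kb of the run, on the right, the ratio was 5.93 in IRD1 and 5.53 in IRD3, and 5 of 6 probes were higher in IRD1. On the separate contig that the array carries for this region, the run from 19800 to 39300 had 6.10 in IRD1 and 5.88 in IRD3, and 34 of 49 probes were higher in IRD1. The contig may hold the same DNA as the run on chromosome 2, so these are not separate checks. Both 20 kb flanks were lower in IRD1. The left flank had 0.72 in IRD1 and 0.89 in IRD3, with 41 of 59 probes lower. The right flank had 0.64 in IRD1 and 0.79 in IRD3, with 49 of 62 probes lower. Flank differences of -0.10 on the left and -0.14 on the right are of the same size as the median of all probes at that level, since probes with a mean ratio of 0 to 1 differed by -0.07 and those of 1 to 2 by -0.12.

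Input DNA set the strains apart at a few probes of the mating-type region. Input values are log2 green signals relative to the array median, and 37235 probes were compared. At least 1 apart were 4 probes with higher input in IRD1 (0.0107%) and 2 with lower (0.00537%). At least 3 apart were 2 probes with higher input in IRD1 (0.00537%) and 1 with lower (0.00269%). The lower one, at 2138700 on chromosome 2, lies directly outside the right edge of the run and had -7.24 in IRD1 and -1.15 in IRD3. It gave no ratio in IRD1, and IRD3 had a ratio of 3.02 there. Its neighbours had normal input, with -0.05 in IRD1 and -0.37 in IRD3 at 2138400 and with -0.92 in IRD1 and -0.85 in IRD3 at 2139000. Both higher ones lie on the contig. The probe at 19800 had -0.75 in IRD1 and -6.39 in IRD3, and that at 39000 had 0.18 in IRD1 and -5.83 in IRD3. Their ratios, 5.25 and 5.36 in IRD1 and 3.79 and 4.03 in IRD3, rest on very little input in IRD3.

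A further 2 probes of the contig were above background in 1 array alone. At 21600 the input was -7.89 in IRD1 and -7.13 in IRD3, and at 21900 it was -7.16 in IRD1 and -8.45 in IRD3, so input was almost absent from both strains. The 4 probes from 2133000 to 2133900 on chromosome 2 were low in the same way. At 2133000 the input was -8.09 in IRD1 and -7.54 in IRD3.

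Moderate input differences over longer stretches were rare. At a threshold of 0.5, 0 runs of input difference were found. At 0.2, a threshold chosen after the data were seen, there were 3. The run from 22200 to 27000 on the mating-type contig had -0.39 in IRD1 and -0.67 in IRD3, a difference of 0.26, where the ratio differed by 0.17. The run from 96900 to 100800 on chromosome 2 had 1.5 in IRD1 and 1.24 in IRD3, and the ratio there differed by 0.06. The run of lower input in IRD1 was the stretch from 12600 to 15600 at the left end of chromosome 1.

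**Figure D5:**
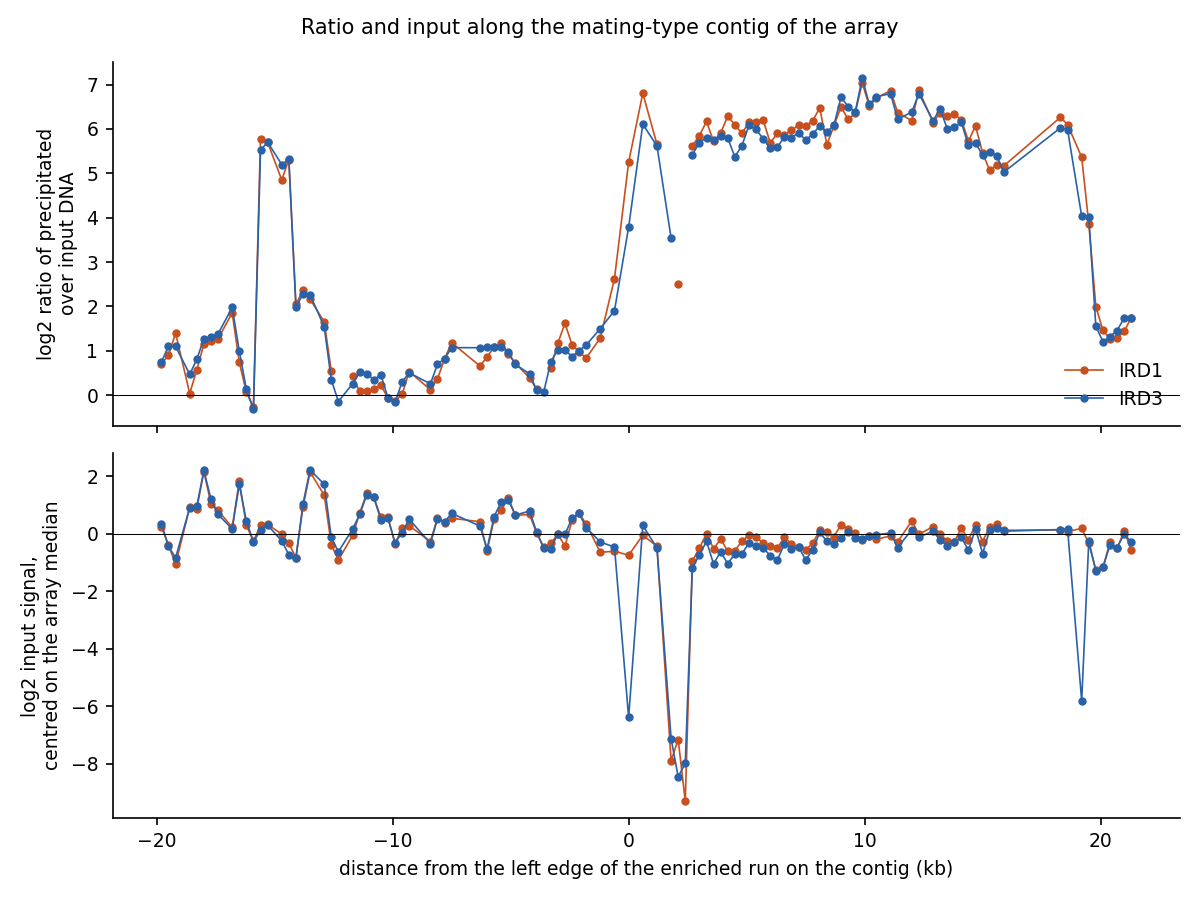
Log2 ratio of precipitated over input DNA (top, vertical axis) and log2 input signal relative to the array median (bottom, vertical axis) along the mating-type contig against the distance from the left edge of its enriched run (horizontal axis, kb). Each point is 1 probe of IRD1 (orange) or IRD3 (blue), and input of IRD3 drops to -6.39 and -5.83 at 2 probes where IRD1 has -0.75 and 0.18.

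Isolated patches of H3K9me3 inside the arms were found at 4 places, and 1 of them differed at its borders. On chromosome 3, the 5 probes from 115500 to 116700 were at 5.05 to 6.24 in IRD1 and at 5.46 to 5.82 in IRD3. Directly beside them the ratio was higher in IRD1. At 115200 the ratio was 2.58 in IRD1 and 0.18 in IRD3, and at 114900 it was 1.73 in IRD1 and 0.35 in IRD3. On the other side, at 117000, it was 1.98 in IRD1 and -0.23 in IRD3. These 3 probes lie 0.6 kb or less from the patch. The next 2 probes, at 117300 and 117600, were marked as outliers in IRD1. With them kept, the ratio at 117300 was 1.66 in IRD1 and -0.07 in IRD3. Input inside the patch was higher in IRD1 on all 5 probes, for example 0.29 in IRD1 and -0.63 in IRD3 at 115500 and -0.06 in IRD1 and -0.62 in IRD3 at 116700. At 117000 it was lower, at -1.29 in IRD1 and -0.51 in IRD3.

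Over the other 3 patches the median differences were 0.09, -0.22 and -0.07, against 0.13 over the run from 115500 to 117000. The values at the borders of these 3 are not given here. At 4907700 on chromosome 1, 3 probes had a median of 5.69 in IRD1 and 5.60 in IRD3. At 2340600 on chromosome 2, 3 probes had 3.51 in IRD1 and 3.66 in IRD3. At 275100 on chromosome 3, 7 probes had 5.74 in IRD1 and 5.81 in IRD3, and 6 of the 7 were lower in IRD1.

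The difference depended on the level of the signal. Mitochondrial DNA carries no histones, so its probes show the background of the precipitation. They were at -1.74 in IRD1 and -2.20 in IRD3, a difference of 0.49, and all 61 were higher in IRD1. Nuclear probes followed the same order at low levels, with a median difference of 0.32 where the mean ratio was under -2 and 0.11 between -2 and -1. Between 3 and 4 the median was -0.17 over 86 probes, of which 13 were at least 1 lower in IRD1. These 13 lay in the run at the right end of chromosome 1 or in the patch at 76500 on chromosome 2. They are therefore not separate from the stretches described above. The order did not continue above that level. The median was 0.04 over 250 probes between 4 and 5, -0.002 over 196 between 5 and 6, and -0.05 over 225 at 6 or more. On the arms the ratio spanned a narrower range in IRD1, with an SD of 0.72 in IRD1 and 0.78 in IRD3.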

How the data were processed

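The authors read spot intensity with Agilent Feature Extraction 12.0.3.1, per the file headers, which subtracts background and applies a linear dye correction to give the processed signals. The median intensity of spot and local background and a log10 ratio are deposited beside the processed signals. The deposited series table gives linear red-to-green ratio values, which matched the processed signals within 0.013 on the log2 scale. The genome build is not given in the sources used here.

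The log2 ratio of red over green processed signal was centred on each array's median. Control spots, outlier-flagged spots and spots whose input was not well above background were left out. Domains were drawn from the mean of both arrays, where a 5-probe running median was at least 3, with runs up to 3 kb apart joined. Subtelomeres were the outer 40 kb of chromosomes 1 and 2, the ends of chromosome 3 the outer 20 kb. The rule named up to 10 called windows in each direction, adjacent and crossing windows, which came to the 9 lower windows and 0 higher ones, and probes whose input differed by 3 or was above background in 1 array alone. Runs, the 4 isolated patches, margins and the window at 1141500 were named after their values were seen. The members and lists were chosen with earlier results of these data known. No test was used, as there was 1 array a side, and this number limits the precision. Window counting was tried on simulated data with added changes and noise drawn from shuffled probe differences under 1 in size. Shuffling removes the correlation of neighbours and the pattern over array rows. The simulation therefore cannot tell how many windows these would produce. Alternatives were background correction, loess, centring, scaling, probe filters, window size and summary, thresholds and array position. Python 3.11.15 and limma 3.58.1 were used, with normexp on the median signal in place of the planned mean signal. The other 2 arrays were not used.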

Additional observations from a re-analysis of the deposited data

How the results depend on the processing

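Each strain has 1 array, so counts and medians describe these arrays, and the number of arrays is the main limit. No paired analysis was possible because each strain has 1 array and the labels carry no replicate numbers. Of 358 values for counts, regions, reaches and input under alternatives, 323 stayed within the limits set, which were 1.5 times for counts, 1.5 kb for reach and 0.25 for medians. Most regional median differences were smaller in size than 0.25, for example -0.05 at the centromeres and -0.19 on the pNSU contigs. Staying within the limit therefore does not show that such a difference kept its direction. Loess within each array gave 68 higher and 18 lower probes, 2 higher and 0 lower windows and 0 crossing windows. It moved the centromeres to 0.31 (also the probes at 6 or more, 0.31), chromosome 1 left and right ends to 0.40 and 0.18, and chromosome 3 left and right ends to 0.61 and 0.36, and the adjacent-probe correlation on chromosome 1 to 0.16. It turned the window at 15000 to 0.48 and the stretch around it to 0.63, and left the right-end runs at -0.60 and -0.77. The cause was not tested. Normexp gave 10 higher probes and 5 crossing windows. Keeping outlier spots gave 172 higher and 116 lower probes, 1 higher window and 8 inputs at least 1 higher. Input from median signals gave 2 higher and 1 lower. Windows of 3 kb gave 5 lower and 2 crossing, means gave 5 crossing, a 1.5-fold threshold gave 15 higher and 19 lower, and a threshold of 1.5 gave 0 lower. The right end of chromosome 2 was -0.36 without suffixed probes and 0.20 in its outer 20 kb. Without suffixed probes the ends of chromosome 3 gave no value. Removing block medians over the array, chosen after seeing the data, gave 16 higher probes, with the 9 windows at -1.31 to -0.92. Reaches that moved with the running median were chromosome 3 left (3.6 kb) and right (1.2 and 2.1 kb) in IRD1, centromere 1 right in IRD3 (7.8 kb) and centromere 3 right in IRD1 (2.4 kb) and IRD3 (13.2 kb).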

Other observations

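A single spot held the largest probe difference. At 1516800 on chromosome 2 the ratio was 0.48 in IRD1 and 7.96 in IRD3, while the neighbour at 1516500 had 0.37 in IRD1 and 0.93 in IRD3 and that at 1517100 had 0.23 in IRD1 and 0.63 in IRD3. Its input was 0.08 in IRD1 and 0.07 in IRD3. On the same chromosome the probe at 2024700 had 1.96 in IRD1 and -0.26 in IRD3, on input of -6.47 in IRD1 and -6.01 in IRD3. A small patch 34.8 to 33.9 kb from the right end of chromosome 2 was marked in both strains, with 3.73 in IRD1 and 3.22 in IRD3 at 4476600.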
